A study of Macaca mulatta with 9 samples.

Results

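The genes described are STAR, TSPO, FDX1 and FDXR, which carry cholesterol into the mitochondrion and supply the electrons for the first step of steroid synthesis there. These genes were chosen with earlier results of these data known, so the p values below are not for genes picked blind to the arrays. Their probe sets were taken by symbol: every probe set that the array's annotation assigns to exactly 1 of these 4 symbols. This gave 8 of the 52865 probe sets on the array, for 4 of the 14132 genes that the annotation names. STAR had 1 probe set, TSPO 2, FDX1 3 and FDXR 2. All 8 passed the filter on low signal and were among the 26383 probe sets tested. The samples were small antral follicles, ovarian follicles with a fluid-filled cavity, dissected from young adult female rhesus macaques in the early follicular phase, around menses. There were 3 groups of 3 biological replicates, with 1 Affymetrix array each. Control females ate a standard diet, WSD females a Western-style diet, and WSD+T females the same Western-style diet with chronically raised androgen, called chronic T in the titles. No group had testosterone on the standard diet, so testosterone is measured only on top of WSD. Each sample pooled the follicles of a female's ovary (3.7 ± 0.3 per ovary, 3 ovaries per group, with the kind of error not stated) and held granulosa cells, follicle wall and cumulus-oocyte complex together.

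Steroid hormones are all made from cholesterol, and the first enzyme of the pathway sits on the inner membrane of the mitochondrion. STAR moves cholesterol from the outer to the inner membrane and is the acutely regulated step of the pathway. TSPO is a cholesterol-binding protein of the outer membrane, abundant in steroid-making cells and also in macrophages, and how far steroid synthesis needs it is debated. FDXR, a flavoprotein, takes electrons from NADPH and passes them to FDX1, a small iron-sulphur protein that carries them to the mitochondrial P450 enzymes, among them the side-chain cleavage enzyme that turns cholesterol into pregnenolone. In the ovary this machinery works first in theca cells, which make androgen, and rises in granulosa cells as they luteinise.

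FDX1 was the gene of the 4 with a change past the threshold. Its second probe set was 2.27-fold higher after WSD than in control, a call kept in all 19 other settings tried. This probe set was lower in WSD+T than in WSD, but that call was lost in 11 of the 19 settings. The first probe set of FDX1, although in the same direction, did not pass in any comparison. The signals of FDXR averaged lower in both diet groups than in control, STAR averaged highest in WSD, and TSPO averaged higher in both diet groups by its first probe set. None of these 3 genes passed the test, and their control and WSD ranges overlapped. Signals are linear MAS5 values scaled to a common array mean. Probe sets of a gene are numbered by their mean signal, and the first represents the gene. Fold changes are differences of log2(signal + 16), with adjusted p values from limma over all tested probe sets and a threshold of 0.05.

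**Figure D1:**
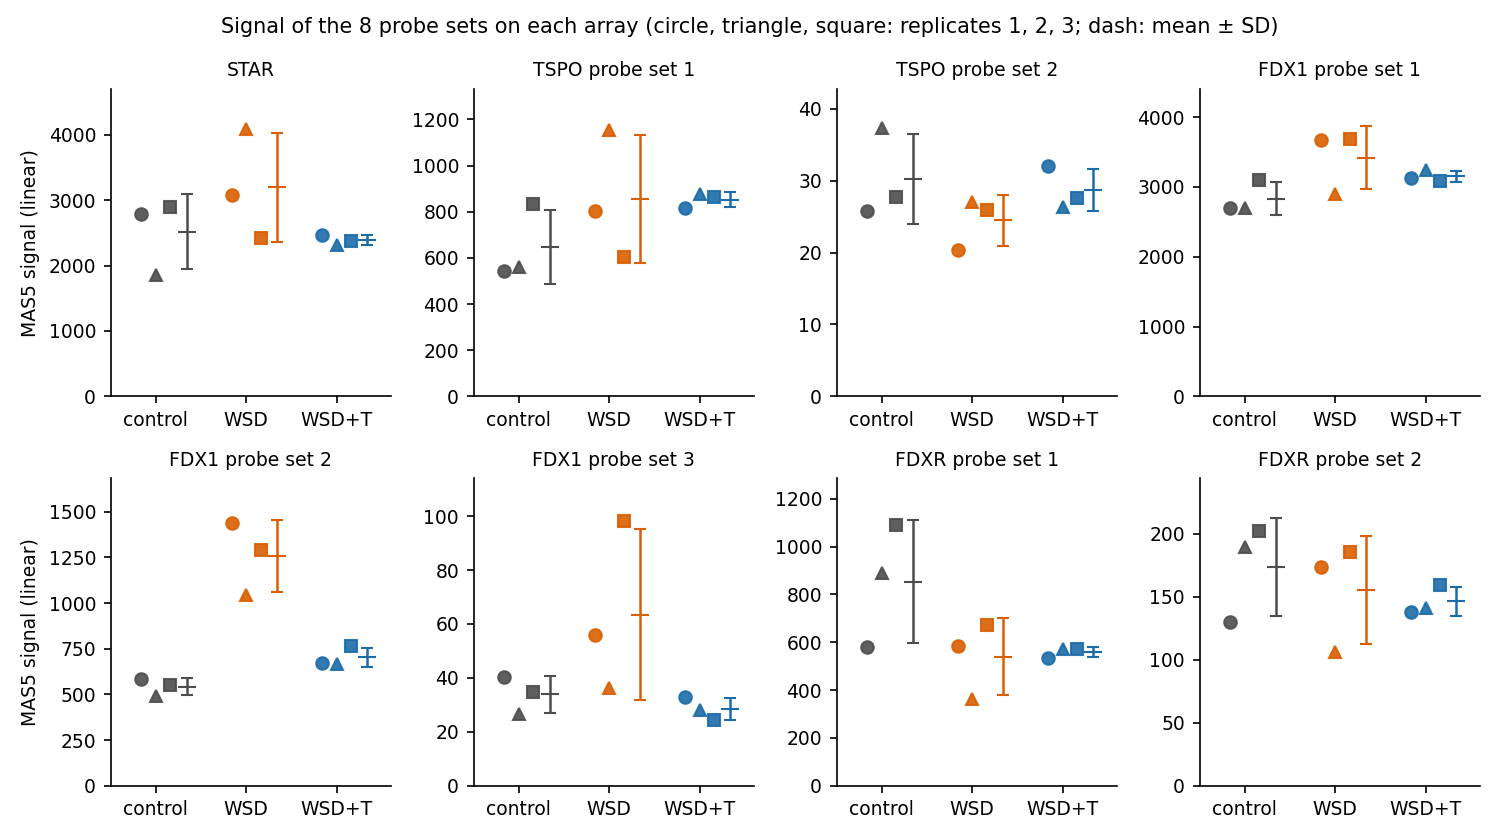
Linear MAS5 signal (y axis) of each of the 8 probe sets on the 9 arrays, by group (x axis), with the group mean ± SD (n = 3) to the right of the points; each panel has its own scale. The 3 WSD arrays lie above all others for FDX1 probe set 2, and the WSD+T arrays lie close together in the first probe set of every gene.

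Some arrays stood apart before any gene was tested. Within groups, the SD of the log2 difference between 2 arrays over the tested probe sets was 0.53 to 0.59 in control, 0.60 to 1.03 in WSD and 0.21 to 0.32 in WSD+T. WSD replicates 2 and 3 were the most unlike pair, and WSD+T replicates 1 and 3 the most alike. Markers of the labelled tissue were present: 10 of 12 granulosa cell markers had a probe set and all 10 were tested, with a summed signal of 17171 to 22005 in control, 9839 to 16920.2 in WSD and 13234 to 15295 in WSD+T. The sum of 12 of 14 myeloid markers was 2128 to 10373 in control, 1426 (WSD replicate 3) to 24739 (WSD replicate 2) in WSD, and 15911 to 17520 in WSD+T. The corresponding ranges were 10071 to 10983, 6450.4 to 10485 and 10179 to 11928 for 8 of 11 theca and stroma markers, and 644 to 1326, 1235 to 1863 and 1649 to 1955 for 11 of 14 oocyte markers. For 10 endothelial markers they were 1100.1 to 1730, 525 to 3873 and 2061 to 2374, for 5 of 7 smooth muscle markers 4224 to 5096, 5374 to 6648 and 5684 to 6126, and for 3 of 8 erythroid markers 666 to 979.8, 643 to 735 and 306 to 408. No marker of any list was at 0, but the lowest signal was 0.32, for an endothelial marker. Some summed markers fell below the filter on low signal. It was passed by 7 of 8 theca and stroma, 10 of 11 oocyte, 11 of 12 myeloid and 7 of 10 endothelial markers. In bulk tissue, fewer cells of a type and less RNA per cell cannot be told apart.

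WSD was set against control for the effect of the diet. Of the 8 probe sets 1 was called higher and none lower, a share of 12.5%, and over all tested probe sets 14.5% were called in either direction, 4.78% higher and 9.68% lower. The share among the members is near this background. The groups did not overlap for 1 of the 8 members, which was higher, against 30.8% of all tested probe sets, 10.6% higher and 20.2% lower. The background count of 3817 called probe sets fell to 1735 and 2048 when control replicate 2 or 3 was left out and to 2463 and 2474 when WSD+T replicate 1 or 3 was, and it was 6628 in the absence of WSD replicate 3. Median log2 fold changes were 0.30 for the members and -0.08 for all tested probe sets.

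STAR (probe set MmuSTS.4519.1.S1_at) had signals of 2788, 1853 and 2896 on control replicates 1 to 3, 3081, 4082 and 2416 on the WSD arrays, and 2465, 2310.3 and 2377 on the WSD+T arrays. WSD replicate 2 was the highest array and control replicate 2 the lowest, and the 3 ranges overlapped. Group means were 2513 ± 573 in control, 3193 ± 839 in WSD and 2384 ± 77.4 in WSD+T (SD, n = 3). After WSD the log2 fold change was 0.34 (SE 0.23, 95% interval -0.19 to 0.87, adjusted p = 0.349). It was 0.13 without control replicate 2, 0.15 without WSD replicate 2 and 0.52 without WSD replicate 3. WSD replicate 2 had the highest myeloid marker sum and WSD replicate 3 the lowest. The WSD+T arrays, with myeloid sums of 15911 to 17520, had STAR signals of 2310.3 to 2465. The part of myeloid cells in the STAR values was not tested.

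In WSD+T against control, STAR differed by -0.05 (95% interval -0.58 to 0.48, adjusted p = 0.938), a difference that turned positive without control replicate 1 (0.04) or control replicate 3 (0.07). In WSD+T against WSD it differed by -0.39 (95% interval -0.91 to 0.14, adjusted p = 0.392), and by -0.19 without WSD replicate 2 and -0.57 without WSD replicate 3. An exact permutation test over all 280 splits of the 9 arrays into 3 groups gave p = 0.321 for STAR. These intervals leave room for changes of either sign, so the data do not show that STAR stayed level.

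TSPO's first probe set (MmugDNA.43213.1.S1_at) had signals of 545, 561 and 832 on the control arrays, 805, 1156 and 606 on the WSD arrays, and 818, 878 and 863 on the WSD+T arrays. All 3 groups overlapped, with the WSD group holding the highest array of the 9, replicate 2. Means were 646 ± 161 in control, 856 ± 278 in WSD and 853 ± 31.3 in WSD+T (SD, n = 3). The difference from control was 0.37 for WSD (SE 0.25, 95% interval -0.19 to 0.94, adjusted p = 0.335) and 0.42 for WSD+T (SE 0.25, 95% interval -0.15 to 0.98, adjusted p = 0.395). WSD+T differed from WSD by 0.04 (95% interval -0.52 to 0.61, adjusted p = 0.945), and this small difference changed sign under median centring (-0.09) and without WSD replicate 3 (-0.18).

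Macrophages are known to hold much TSPO, and the myeloid marker sum had the same order as this probe set over the WSD arrays. So did the endothelial marker sum (3873, 1732 and 525 on WSD replicates 2, 1 and 3). On these arrays the theca and stroma sum (10485, 6795 and 6450.4) and the oocyte sum (1863, 1448 and 1235) had that order too. The granulosa, smooth muscle and erythroid sums did not. TSPO's first probe set read 1156 where the myeloid sum was 24739 (WSD replicate 2). It read 805 where that sum was 17016 (WSD replicate 1) and 606 where it was 1426 (WSD replicate 3). In control the highest TSPO signal, 832, was on replicate 3, where the myeloid sum was 2766, while replicate 1 had the highest sum, 10373, and a TSPO signal of 545. The log2 fold change of TSPO after WSD was 0.14 without WSD replicate 2, 0.59 without WSD replicate 3 and 0.57 without control replicate 3. The part of myeloid cells in the TSPO values was not tested.

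TSPO's other probe set (MmugDNA.13169.1.S1_at) was dim, with signals from 20.4 to 37.3, against a filter at a signal of about 21.2. Its group means were 30.2 ± 6.21 in control, 24.5 ± 3.60 in WSD and 28.6 ± 2.94 in WSD+T. It differed from control by -0.19 in WSD (adjusted p = 0.414) and by -0.04 in WSD+T (adjusted p = 0.908), opposite in sign to the first probe set, and by 0.14 in WSD+T against WSD (adjusted p = 0.645). The WSD+T difference turned to 0.06 without control replicate 2. Under quantile normalization and cyclic loess the difference between WSD+T and WSD was -0.01 in each.

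FDX1 was measured by 3 probe sets, which changed by unequal amounts. Their signals correlated over the arrays by 0.77 for probe sets 1 and 2, 0.67 for 1 and 3 and 0.72 for 2 and 3. After WSD the log2 fold changes of probe sets 1 to 3 were 0.27, 1.18 and 0.60. In WSD+T against WSD they were -0.11, -0.82 and -0.77. In WSD+T against control their signs differed (0.16, 0.36 and -0.17). Probe set 2 (MmugDNA.29297.1.S1_at) had signals of 581, 493 and 552 on the control arrays, 1436, 1047 and 1292 on the WSD arrays, and 674, 667 and 765 on the WSD+T arrays. The 3 groups did not overlap in any pairing: every WSD+T array lay above every control array, and every WSD array above both. Means were 542 ± 44.8, 1258 ± 197 and 702 ± 54.5 (SD, n = 3). After WSD it rose by 1.18 on the log2 scale, 2.27-fold (SE 0.16, 95% interval 0.83 to 1.54, adjusted p = 0.00434).

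This rise passed in all 19 other settings tried, with adjusted p from 0.00268 to 0.0372 and a log2 fold change from 1.08 to 1.31. It passed in each of the 9 fits that left out 1 array, WSD replicates 2 and 3 among them. The exact permutation test over the 3 groups gave p = 0.00357, the smallest that 280 splits allow, and limma's F test over the groups gave an adjusted p = 0.00994. At the threshold of 0.05, 11.7% of all tested probe sets passed this F test.

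Probe set 1 of FDX1 (MmugDNA.33189.1.S1_at) had signals of 2703, 2692 and 3099 on the control arrays, 3675, 2903 and 3680.3 on the WSD arrays, and 3126, 3236 and 3085 on the WSD+T arrays. WSD replicate 2 fell within the control range and the groups overlapped. Means were 2831 ± 232, 3419 ± 447 and 3149 ± 78.1 (SD, n = 3). The log2 fold change after WSD was 0.27 (SE 0.14, 95% interval -0.06 to 0.59, adjusted p = 0.242), an interval that stops short of the lower bound found for probe set 2. In WSD+T it was 0.16 against control (95% interval -0.17 to 0.48, adjusted p = 0.596) and -0.11 against WSD (95% interval -0.44 to 0.22, adjusted p = 0.728).

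Probe set 3 (MmugDNA.7395.1.S1_at) was dim, with 40.3, 26.7 and 34.9 on the control arrays, 55.9, 36.1 and 98.1 on the WSD arrays, and 32.8, 27.9 and 24.5 on the WSD+T arrays. WSD replicate 3 was far above the rest, and WSD replicate 2 again lay within the control range. Its log2 fold change after WSD was 0.60 (SE 0.27, 95% interval -0.01 to 1.21, adjusted p = 0.164). It passed without WSD replicate 2 (0.87, adjusted p = 0.0418) and in no other setting, where the adjusted p went up to 0.356.

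The 3 FDX1 probe sets were compared within each array, after their values had been seen, by the log2 difference between them. Probe set 2 minus probe set 1 was -2.35 ± 0.14 in control, -1.43 ± 0.08 in WSD and -2.14 ± 0.14 in WSD+T (SD, n = 3), so the 2 probe sets changed unequally. The exact permutation test over the 3 groups gave p = 0.0107, or 0.0321 adjusted over the 3 differences. For probe set 3 minus probe set 1 it gave an exact p = 0.050 (adjusted 0.0750), and for probe set 3 minus probe set 2 an exact p = 0.136 (adjusted 0.136). The transcripts that each probe set detects were not checked against probe sequences.

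**Figure D2:**
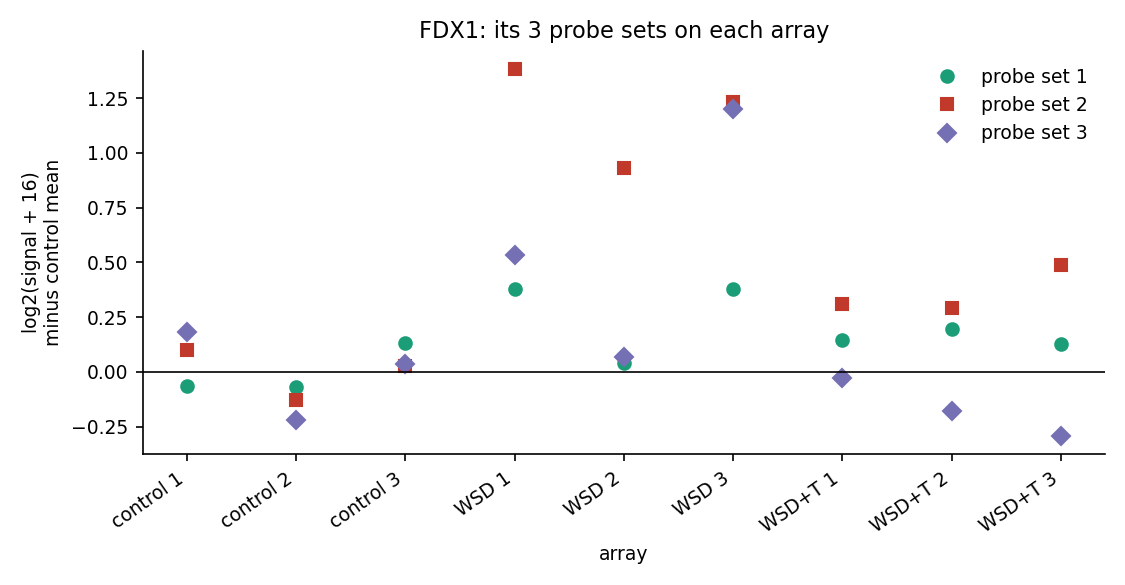
The 3 FDX1 probe sets on each array (x axis) as log2(signal + 16) minus the probe set's control mean (y axis). Probe set 2 stands clearly above 0 on all 3 WSD arrays, while probe sets 1 and 3 are near 0 on WSD replicate 2.

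FDXR hands electrons to FDX1, and its values did not follow the rise of FDX1 probe set 2. FDXR's first probe set (MmuSTS.3713.1.S1_at) had signals of 581, 888 and 1092 on the control arrays, 585, 362 and 672 on the WSD arrays, and 534, 570.3 and 573 on the WSD+T arrays. WSD replicate 2 was the lowest array, and control replicate 1 lay within the WSD range. Means were 854 ± 257 in control, 539.9 ± 159.9 in WSD and 559 ± 22.0 in WSD+T (SD, n = 3). The log2 fold change after WSD was -0.64 (SE 0.28, 95% interval -1.27 to -0.02, unadjusted p = 0.0451, adjusted p = 0.151). Of all 26383 tested probe sets, 8213 had an unadjusted p under 0.05 in this comparison. Over the other settings the adjusted p of FDXR's first probe set ran from 0.0692 to 0.361. Without 1 array the change ran from -0.89 (without control replicate 1) to -0.39 (without WSD replicate 2).

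Its other probe set had signals of 129.6, 189 and 202 in control, 174, 106 and 185 in WSD, and 138, 141 and 159 in WSD+T, with overlapping ranges. Its difference after WSD was -0.16 (95% interval -0.68 to 0.36, adjusted p = 0.665), and without WSD replicate 2 it was 0.06. In both probe sets the lowest of the 9 arrays was WSD replicate 2.

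The summed granulosa cell marker signal had its lowest and highest arrays in common with FDXR's first probe set. Single markers of the list did not all follow the sum. INHBA was highest on WSD replicate 2 (2186) and AMH on control replicate 1 (383). The array with the lowest granulosa marker sum, 9839, was WSD replicate 2, where FDXR's first probe set read 362, and the array with the highest, 22005, was control replicate 3, where it read 1092. Control replicate 2, with a sum of 18817, read 888, and the other 6 arrays, with sums from 13234 to 17171, read 534 to 672. The part of cell composition in the FDXR values was not tested.

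**Figure D3:**
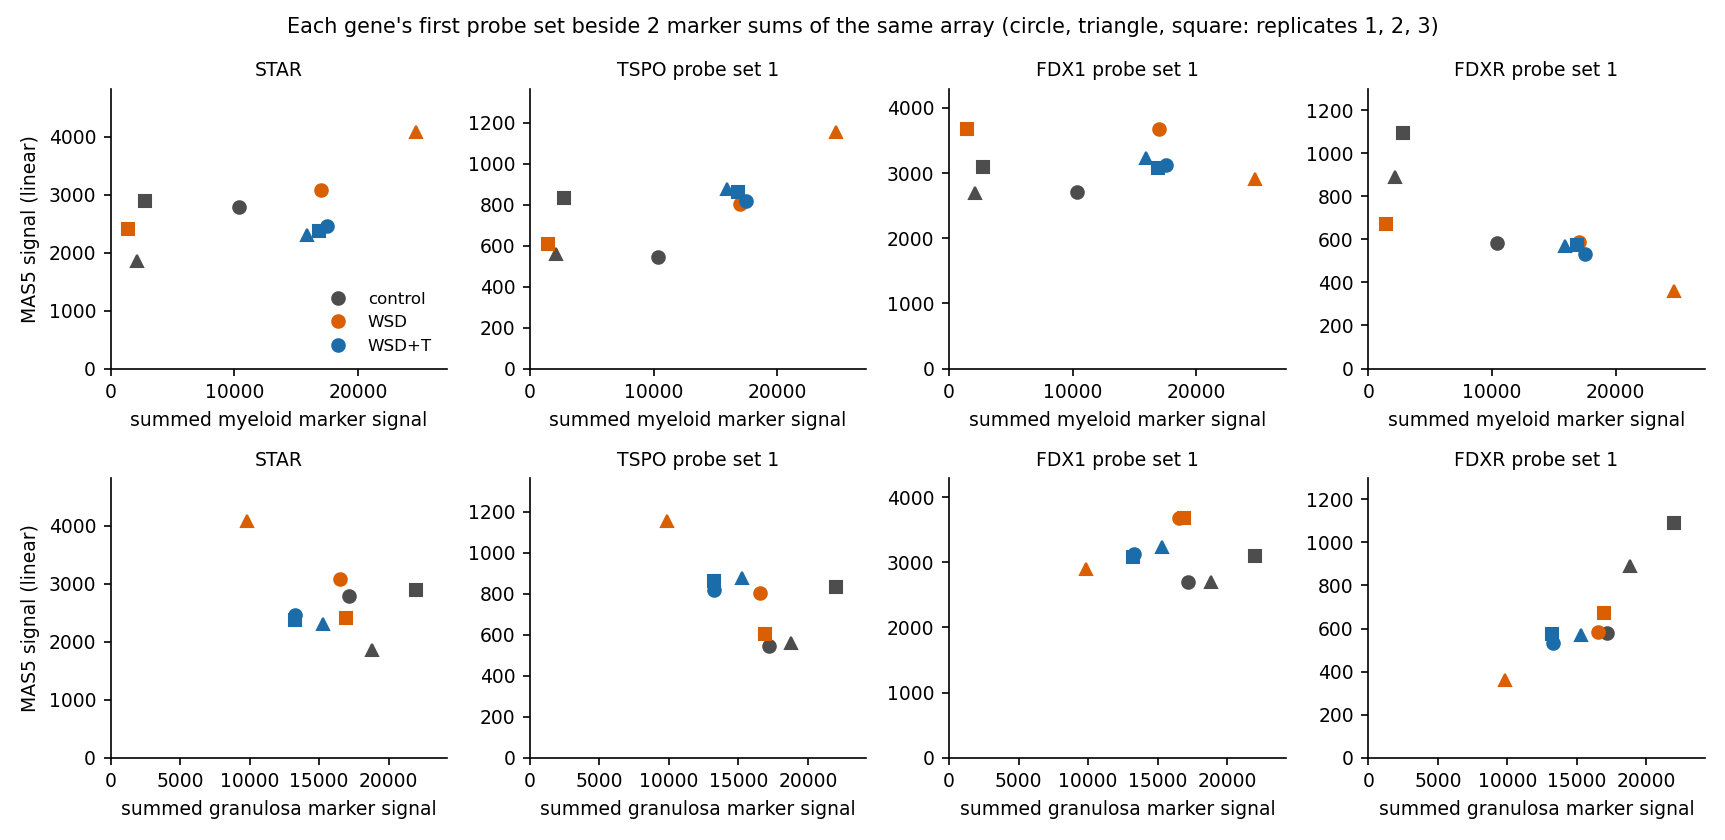
Signal of each gene's first probe set (y axis, linear MAS5) beside the summed signal of the myeloid markers (top row, x axis) and of the granulosa cell markers (bottom row, x axis) on the same array, coloured by group. WSD replicate 2 (orange triangle) has the highest STAR and TSPO signals, the lowest FDXR signal, the highest myeloid sum and the lowest granulosa sum.

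WSD+T was set against the same control arrays for the effect of diet and testosterone combined. limma called none of the 8 probe sets, with 1 at an unadjusted p under 0.05, as were 5066 of the 26383 tested. The background was 1.97% called in either direction, 0.542% higher and 1.43% lower. Leaving out 1 array moved that background count of 520 to 224, 97 and 104 without control replicates 1, 2 and 3, to 1595 and 1777 without WSD replicates 2 and 3, to 123 without WSD+T replicate 2, and to 0 without WSD+T replicate 1 or 3. The member at an unadjusted p under 0.05 was FDX1 probe set 2, with a log2 fold change of 0.36 (SE 0.16, 95% interval 0.01 to 0.72, adjusted p = 0.251). FDX1 probe set 3 differed by -0.17 (adjusted p = 0.787).

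FDXR's first probe set differed from control by -0.55 in WSD+T (SE 0.28, 95% interval -1.18 to 0.08, adjusted p = 0.313), and its 3 WSD+T arrays all lay below the 3 control arrays. Without control replicate 3 the difference was -0.35, and without control replicate 1 it was -0.80. Its other probe set differed by -0.21 (95% interval -0.73 to 0.32, adjusted p = 0.673). Groups did not overlap for 2 of the 8 members, or 25.0%, FDX1 probe set 2 and FDXR probe set 1, the first higher and the second lower, and over all tested probe sets this share was 36.8%, 18.8% higher and 18.0% lower.

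WSD+T was set against WSD for the effect of testosterone on top of the diet. Of the 8 probe sets 1 was called lower and none higher, or 12.5%, against a background of 2.99% called, 2.04% higher and 0.948% lower. FDX1 probe set 2 fell by 0.82 on the log2 scale, from 1258 ± 197 to 702 ± 54.5 (SE 0.16, 95% interval -1.17 to -0.46, adjusted p = 0.0368). This call rested on small margins. Of the 9 fits that left out 1 array it passed in 2, without WSD replicate 2 (adjusted p = 0.0227) or WSD replicate 3 (0.0419).

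The call was lost without control replicates 1, 2 or 3 (adjusted p = 0.0568, 0.0506 and 0.0543), without WSD replicate 1 (0.0962) and without WSD+T replicates 1, 2 or 3 (0.162, 0.158 and 0.112). It was also lost with only the 6 arrays of the compared groups (0.0801) and with array weights per group (0.0624). The replicate block (0.0855) and the average of WSD+T replicates 1 and 3 (0.135) lost it too. The log2 fold change itself stayed between -0.96 and -0.72 in all 19 settings. The background count of 789 moved too: it was 404, 494 and 479 without control replicates 1, 2 and 3, 45, 1548 and 1488 without WSD replicates 1, 2 and 3, and 0, 0 and 2 without WSD+T replicates 1, 2 and 3.

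FDX1 probe set 3 was also lower in every WSD+T array than in every WSD array, with a log2 difference of -0.77 (SE 0.27, 95% interval -1.37 to -0.16, adjusted p = 0.150), and passed without WSD replicate 2 (adjusted p = 0.0423). Groups did not overlap for these 2 of the 8 members, 25.0%, both lower, against 28.5% of all tested probe sets, 17.5% higher and 10.9% lower. FDXR's first probe set differed by 0.09 (95% interval -0.53 to 0.72, adjusted p = 0.891), which turned to -0.04 under median centring and to -0.16 without WSD replicate 2. Its other probe set differed by -0.05 (adjusted p = 0.938), which turned to 0.05 and 0.09 without WSD replicates 1 and 3.

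**Figure D4:**
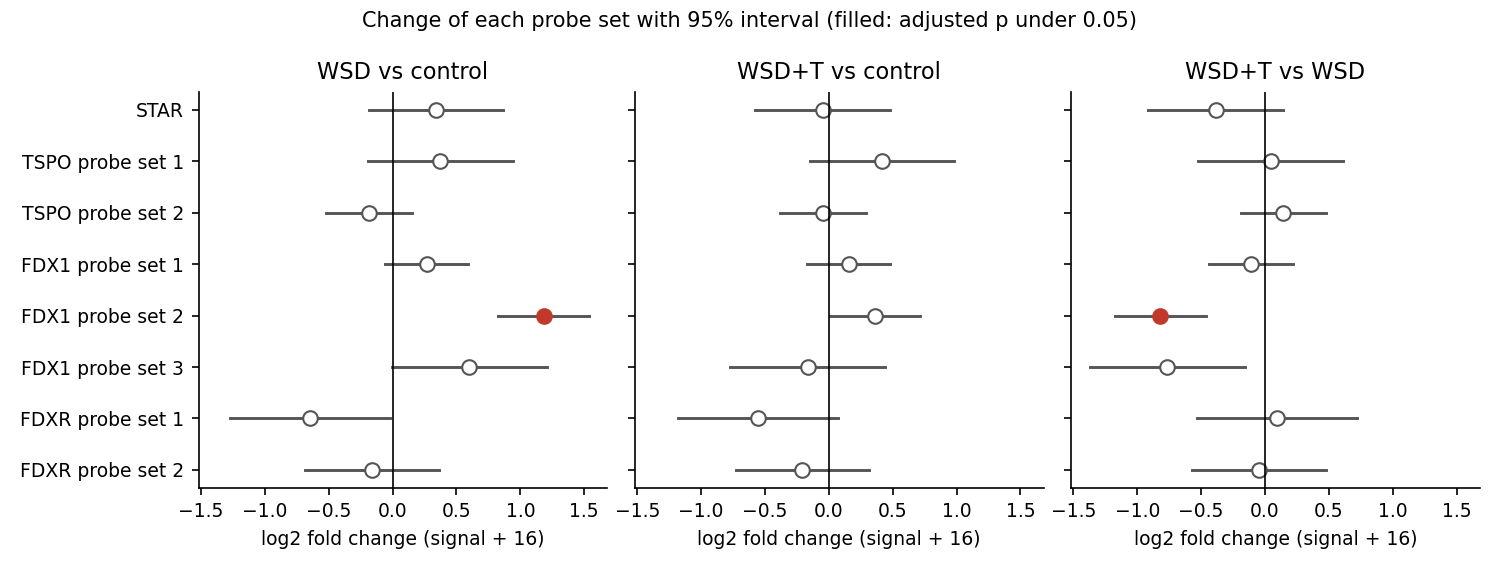
Log2 fold change of each probe set (x axis, on the signal + 16 scale) with its 95% interval from limma, in the 3 comparisons; filled points have an adjusted p under 0.05. FDX1 probe set 2 is the filled point in WSD vs control (1.18) and in WSD+T vs WSD (-0.82).

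The spread within groups differed for these genes. The within-group variance of STAR's log2 signal was 0.126 in control, 0.142 in WSD and 0.00216 in WSD+T, and that of FDXR's first probe set 0.207, 0.205 and 0.00310. The mean over all tested probe sets was 0.152, 0.330 and 0.0411. The fit used 1 spread for all 3 groups, which for WSD against control includes the WSD+T arrays. With only the 6 control and WSD arrays, FDX1 probe set 2 still passed (adjusted p = 0.0372).

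The genes around these 4 proteins were taken from 7 lists, with 1 tested probe set per gene. Like the 4 genes, the lists were chosen with earlier results of these data known. The counts after WSD are to be read against the 4.78% of all tested probe sets called higher and the 9.68% called lower. In the mitochondrial cholesterol import list, 12 of 18 genes were tested and 1 was called lower after WSD and none higher (median 0.01, against -0.08 for all tested probe sets). A single call among 12 genes is near that background. The called gene was AKAP1, which anchors protein kinase A on the outer mitochondrial membrane. Its signal was 997 ± 155 in control and 585 ± 76.6 in WSD, a log2 difference of -0.75 (SE 0.16, adjusted p = 0.0190). The call was lost under median centring (0.0671), in the fit to control and WSD arrays alone (0.0840), with array weights per group (0.0594), with control replicate 2 (0.0622) or 3 (0.0533) left out, and with WSD replicate 1 left out (0.0551). STARD4, a soluble cholesterol carrier related to STAR and named here after its values were seen, averaged 306 ± 137 in control, 676 ± 429 in WSD and 219 ± 16.8 in WSD+T, and did not pass in any comparison (adjusted p = 0.133, 0.678 and 0.103 for WSD and WSD+T against control and WSD+T against WSD).

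The list of cholesterol uptake, storage and release had 11 of 21 genes tested. limma called none after WSD (median 0.35, 2 at an unadjusted p under 0.05). None were called in WSD+T against control (median 0.28, 3 at an unadjusted p under 0.05). Nor were any in WSD+T against WSD (median 0.03, 1 at an unadjusted p under 0.05). Of all 26383 tested probe sets, 8213, 5066 and 5523 had an unadjusted p under 0.05 in these comparisons. SCARB1, the receptor for high-density lipoprotein, was not analysed here. The list of mitochondrial P450 enzymes held 6 genes, of which 4 had a probe set and 1 passed the filter and was tested. It was the vitamin D-inactivating enzyme CYP24A1, with 1460 ± 44.1 in control, 1169.9 ± 234 in WSD and 1282 ± 37.2 in WSD+T. Its difference after WSD was -0.33 (adjusted p = 0.186), and it passed without WSD replicate 3 (-0.49, adjusted p = 0.0307). The side-chain cleavage enzyme CYP11A1 was not analysed here.

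Among other genes of electron supply, 9 of 13 were tested and 1 was lower after WSD and none higher (median -0.10). NNT, which makes NADPH in the mitochondrion, the substrate of FDXR, went from 1316 ± 91.1 to 899 ± 165 (-0.56, SE 0.16, adjusted p = 0.0497). It lost the call in 15 of 19 other settings, including 8 of the 9 fits without 1 array, with adjusted p up to 0.172, and passed among those 9 only without WSD replicate 3 (0.0170). POR, which gives electrons to the P450 enzymes of the endoplasmic reticulum, was 729 ± 102 in control, 691 ± 191 in WSD and 686 ± 37.7 in WSD+T (adjusted p = 0.769 and 0.881 against control).

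FDX1 carries an iron-sulphur cluster, and of the iron-sulphur assembly list 10 of 16 genes were tested. After WSD 1 was lower and none higher (median -0.16). It was NFS1, the cysteine desulphurase that supplies the sulphur, which fell from 224 ± 36.9 to 92.2 ± 13.1 (-1.15, SE 0.15, adjusted p = 0.00451) and kept its call in all 19 other settings. In WSD+T it was 123 ± 2.26 and also lower than control (-0.78, SE 0.15, adjusted p = 0.0446), where 1.43% of all tested probe sets were called lower. This call was lost in 11 of the 19 settings. Among the single-array fits that lost it, the adjusted p was 0.118 without control replicate 2, 0.0833 and 0.0887 without control replicates 1 and 3, 0.0591 without WSD replicate 1, and 0.197, 0.132 and 0.192 without WSD+T replicates 1, 2 and 3.

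Downstream of pregnenolone, 7 of 11 steroid enzymes were tested and 3 were lower after WSD and none higher (median -0.60), where 9.68% of all tested probe sets were called lower. Of the list's genes 3 are also on a marker list, CYP17A1 on that of theca and stroma. The theca and stroma sum was 6795 and 6450.4 on WSD replicates 1 and 3 and 10485 on WSD replicate 2, against 10071 to 10983 in control, and the granulosa sum was below the control range on all 3 WSD arrays. The part of cell composition in these values was not tested. The called enzymes were HSD3B2 (-1.04, adjusted p = 0.00683), CYP17A1 (-1.67, adjusted p = 0.00715) and HSD17B8 (-0.60, adjusted p = 0.0295), the last of which lost its call in 10 of 19 settings. It did not pass without control replicates 1, 2 or 3 (0.0652, 0.0858 and 0.0702) or WSD+T replicate 3 (0.0594), or in 6 of the settings that left out no single array, with adjusted p up to 0.114. HSD3B2 and CYP17A1 kept theirs in all 19, and so fell in the arrays in which FDX1 probe set 2 rose. In WSD+T, 1 of the 7 was called lower than control, HSD3B2 (-2.26, adjusted p = 0.00642), against 1.43% of all tested probe sets. The adjusted p was 0.0696 and 0.101 without WSD+T replicates 1 and 3, and 0.0675 with these 2 averaged. HSD3B2 was called lower than in WSD too (-1.21, adjusted p = 0.0182), against 0.948% of all tested probe sets. The latter call was lost without WSD replicate 1 (0.0619) or WSD+T replicates 1, 2 or 3 (0.125, 0.107 and 0.0791), with the replicate block (0.0667), with only the 2 groups compared (0.0518) and with WSD+T replicates 1 and 3 averaged (0.103).

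Of the known regulators, 15 of 21 were tested and 2 were higher after WSD and none lower (median 0.05), where 4.78% of all tested probe sets were called higher. CREM, which encodes activators and repressors of cyclic AMP-driven transcription, rose from 251 ± 24.9 to 734 ± 222 (1.45, SE 0.22, adjusted p = 0.00634), kept its call in all 19 other settings, and was 370.1 ± 2.06 in WSD+T. SIK2, a kinase that restrains cyclic AMP-driven transcription, went from 184 ± 29.6 in control to 395 ± 117 in WSD (1.02, SE 0.23, adjusted p = 0.0215; 0.0502 and 0.0704 without control replicates 2 and 3, 0.0749 with only the 2 groups compared and 0.0702 with array weights per group). It was 148 ± 24.2 in WSD+T, lower than in WSD (-1.30, SE 0.23, adjusted p = 0.0312), where 0.948% of all tested probe sets were called lower. This call was lost in 8 of 19 settings. These were the fits without WSD replicate 1 (0.0752) or WSD+T replicates 1, 2 or 3 (0.143, 0.142 and 0.107), with the replicate block (0.0743), with only the 2 groups compared (0.0689), with array weights (0.0553) and with WSD+T replicates 1 and 3 averaged (0.119). The receptors FSHR and LHCGR were not analysed here.

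In WSD+T against control, limma called no gene of the cholesterol import, electron supply and regulator lists, where 0, 2 and 4 had an unadjusted p under 0.05 (medians -0.09, -0.15 and -0.14, against -0.01 for all tested probe sets). In WSD+T against WSD it called none of the cholesterol import, electron supply and iron-sulphur lists. There, 2, 0 and 4 had an unadjusted p under 0.05 (medians -0.08, 0.10 and -0.03, against 0.09 for all). Of all 26383 tested probe sets, 5066 in WSD+T against control and 5523 in WSD+T against WSD had an unadjusted p under 0.05.

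**Figure D5:**
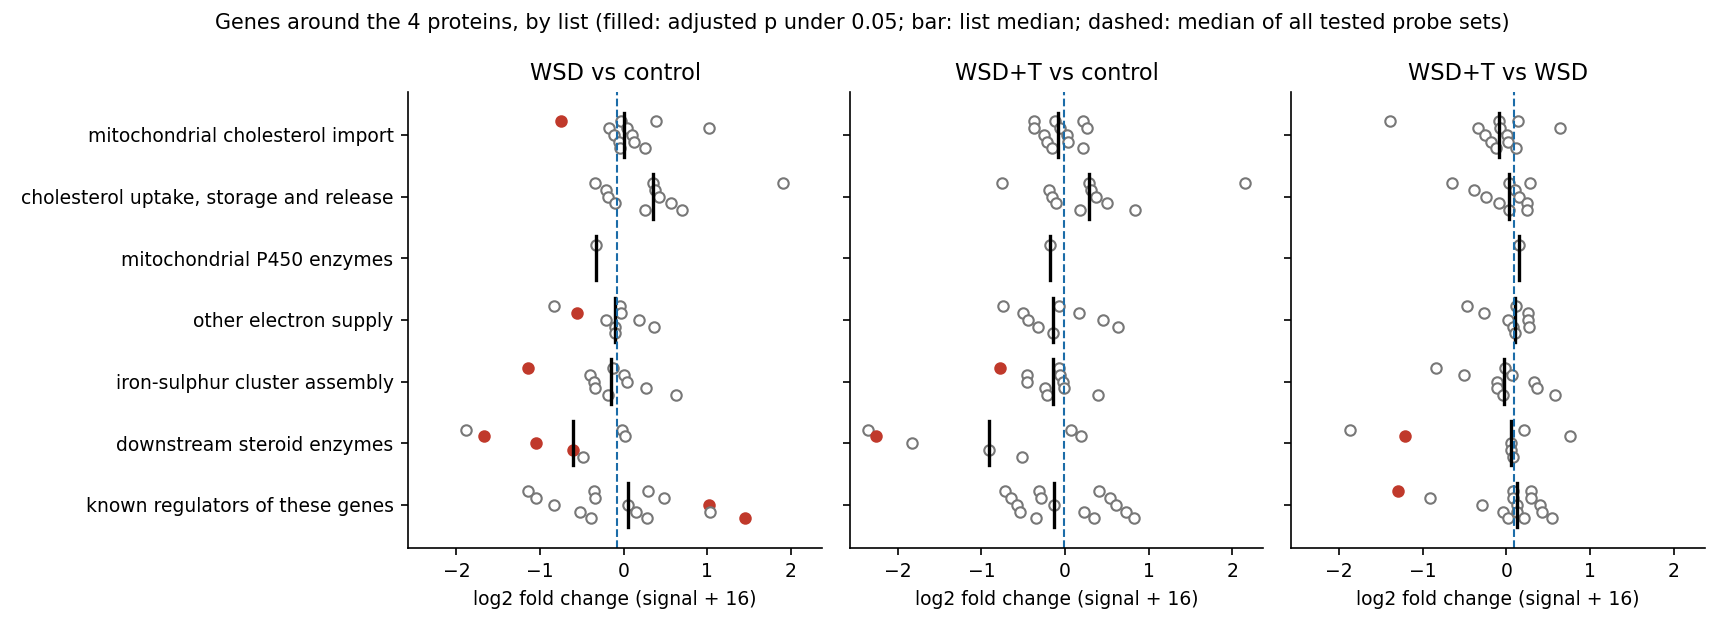
Log2 fold change (x axis, on the signal + 16 scale) of each tested gene of the 7 lists (rows) in the 3 comparisons; filled points have an adjusted p under 0.05, the bar is the list's median and the dashed line the median of all tested probe sets. CREM and SIK2 are the filled points to the right of 0 after WSD; AKAP1, NNT, NFS1 and the steroid enzymes are to the left.

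The genes most like each member over the 9 arrays were found by Pearson's r of log2 signal among 10001 other genes, as a description of arrays that fall into 3 groups. The 5 most like STAR were PEPD (0.98), the linker histone gene H1-2 (0.97), CDC42EP2 (0.96), SPTLC2, a subunit of the first enzyme of sphingolipid synthesis (0.96), and the retromer subunit VPS26A (0.95). For TSPO they were the ligand BMP6 (0.96), the secreted protease inhibitor SLPI (0.95), the lysosomal gene CLN3 (0.95), C19H19orf25 (0.95) and the mitochondrial ribosomal protein MRPL20 (0.95). For FDX1's first probe set they were the translation factor subunit EIF3M (0.97), LOC698249 (0.96), the calcium entry regulator SARAF (0.96), FJX1 (0.96) and BAHD1 (0.96). For FDXR they were CDCA7L (0.97), ZNF442 (0.96), CRCP (0.96), ZDHHC13 (0.95) and OSER1 (0.95).

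These genes were picked for their r with a member over the same arrays, so a shared pattern follows from the choice. PEPD, like STAR, was highest on WSD replicate 2 (1155) and lowest on control replicate 2 (647). SLPI, like TSPO, was highest on WSD replicate 2 (148) and high in control replicate 3 (99.2) against 24.6 and 32.2 in control replicates 1 and 2. CDCA7L, like FDXR, was lowest on WSD replicate 2 (1645) and highest on control replicate 3 (2537). FJX1, like FDX1 probe set 1, was highest on WSD replicates 1 and 3 (1082 and 1006) and read 261 on WSD replicate 2.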

How the data were processed

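Per the labels, RNA was amplified with a NuGEN 3' protocol, biotin-labelled and hybridised to 1-colour Affymetrix arrays. The deposited values are linear MAS5 signal intensities per probe set, per the submitters' processing notes (no version). The mean without the outer 2% was 200.01 on each array, so the authors had scaled the arrays. Detection calls were not used here, and the genome build is not given in the sources used here.

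The 99 control probe sets were left out, and log2(signal + 16) was used without further normalization. Probe sets with a mean at or above the median (5.22) were tested. Means per group were fitted to the 9 arrays with limma 3.58.1 in R 4.3.3 (6 residual and 2.69 prior degrees of freedom), adjusting each comparison by Benjamini-Hochberg. Figures used matplotlib 3.10.9 in Python 3.11.15. The fit was tried on simulated data with the same spread in every group, so that trial does not cover the unequal spreads of these groups. Exact permutation tests used all 280 splits. With 3 arrays against 3, an exact permutation test cannot go below p = 0.1. The number of arrays limits the precision.

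Named were all probe sets of the 4 genes, up to 4 called genes per list and comparison, 6 fixed genes if tested, and the 5 genes most like each member. Members and lists were chosen with earlier results of these data known. The array annotation's symbols for the 8 probe sets were the same in a RefSeq table. Alternatives were other pseudocounts, normalizations, samples, weights and blocks.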

Additional observations from a re-analysis of the deposited data

How the results depend on the processing

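Over 24 results of the 8 probe sets and 19 settings, 431 of 456 values kept their direction and their side of the threshold. FDX1 probe set 2 kept its call after WSD throughout. Its call in WSD+T vs WSD was lost with only the 2 groups compared (-0.82, adjusted p = 0.0801), with array weights per group (-0.82, 0.0624), with the replicate block (-0.82, 0.0855) and with WSD+T replicates 1 and 3 averaged (-0.84, 0.135), and leaving out 1 array gave -0.94 to -0.72. Leaving out 1 array gave 0.30 to 0.87 for FDX1 probe set 3 after WSD and -1.03 to -0.47 in WSD+T vs WSD. The other members changed direction in 12 values, all with intervals across 0. Leaving out 1 array gave -0.34 to 0.064 for FDXR probe set 2 after WSD, -0.25 to 0.068 for STAR and -0.11 to 0.063 for TSPO probe set 2 in WSD+T vs control, and in WSD+T vs WSD -0.18 to 0.28 for TSPO, -0.16 to 0.27 for FDXR and -0.27 to 0.088 for FDXR probe set 2. Median centring gave -0.094 for TSPO and -0.045 for FDXR, and quantile normalization and cyclic loess -0.012 and -0.011 for TSPO probe set 2. POR was 0.030 after WSD under median centring, and in WSD+T vs WSD -0.12 and -0.018 under median centring and cyclic loess. Without 1 array it ran from -0.31 to 0.064 after WSD, -0.18 to 0.020 in WSD+T vs control and -0.14 to 0.23 in WSD+T vs WSD. NNT in WSD+T vs WSD was -0.030 under median centring and -0.032 to 0.23 without 1 array. The causes were not tested.

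The count of called probe sets after WSD, 3817, was 859 with only the 2 groups compared, 2220 with the replicate block, 1367 with array weights and 2536 with WSD+T replicates 1 and 3 averaged, and 1735 to 6628 without 1 array. In WSD+T vs control, 520 became 3265, 3, 3267 and 0 (3072 at an unadjusted p under 0.05 in limma), and 0 to 1777 without 1 array. In WSD+T vs WSD, 789 became 9, 1, 186 and 0 (3956 at an unadjusted p under 0.05), 300 under median centring, and 0 to 1548 without 1 array. Where 1 array was left out and limma called 0, 3006 to 3782 had an unadjusted p under 0.05. The share of calls that were lower after WSD was 66.9%, and 56.8%, 46.8% and 50.3% under quantile normalization, median centring and cyclic loess. In WSD+T vs WSD it was 31.7%, and 51.7%, 60.0% and 57.0%. Median centring moved the median of all tested probe sets by 0.13 after WSD and by -0.14 in WSD+T vs WSD. Relative to the median of all, FDX1 probe set 2 was at 1.27 and -0.91 in these comparisons. Same-numbered arrays of different groups correlated in their residuals by -0.30 to 0.19, with 4 of 9 pairs over 0.1, so the numbers were not taken to pair the samples. Signals near the filter limit what TSPO probe set 2 and FDX1 probe set 3 can show.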
